A study of Homo sapiens with 6 samples.

Results

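The 30 genes described here sense oxygen or answer to hypoxia, the state of low oxygen. They are 3 subunits of the hypoxia-inducible factors (HIF), 5 genes that sense oxygen and turn HIF over, and 22 genes that HIF is known to switch on, with enzymes of glycolysis left out. Members were taken by gene symbol, and each of the 30 symbols matched 1 of 60831 genes in the deposited table. RNA was sequenced in 6 libraries of the human pancreatic cancer line PATU8988, and 3 libraries came from each of 2 groups. The shCLIC1 group carried a hairpin against CLIC1, a chloride intracellular channel protein, and the shNC group carried a control hairpin. Both groups were infected with lentivirus from 1 type of vector, which also encodes EGFP and puromycin resistance, and were selected with puromycin into stable lines, per the labels' protocols. No low-oxygen step is named in those protocols, so the genes were compared at the levels they had in standard culture. The sources used here do not say how many hairpins were aimed at CLIC1 or whether libraries of a group came from separate cultures. The p-values therefore cover only the differences among these libraries, which may be technical.

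In cells with enough oxygen, prolyl hydroxylases (EGLN1 to EGLN3) mark the HIF alpha subunits, and the von Hippel-Lindau protein (VHL) then directs them to degradation. When oxygen is scarce the alpha subunits HIF1A and EPAS1 persist, pair with ARNT and bind short DNA elements with the core ACGTG or GCGTG near their target genes. The control lies mainly at the level of HIF protein and its activity, so transcripts of the targets, more than those of HIF1A, are used as a readout. Pancreatic tumours are known as poorly perfused tissue, and their cells are often studied for this response.

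The HIF core element was looked for in the 250 bases before each RefSeq transcription start (GRCh38.p14), on both strands, and 25 of the 30 members had such a sequence. ACGTG was present for 13 of these 25 members (52% against 21.7% of 27305 genes in the table of promoters). ACGTG or GCGTG was present for 21 of 25 (84% against 47.4% of all genes). Most members were listed as known HIF targets, and the genes compared were not matched for base content. The higher shares are therefore a description and not a test. Where a palindrome CACGTG occurs, both strands match and overlap. Shown are ERO1A, the only member whose shCLIC1 libraries all lay above every shNC library, DDIT4 and FAM162A, which had the smallest p-values among the members on the low side, ANKRD37, with 3 ACGTG matches, and CA9, whose single match at −18 lies closest to the start among these 5. Capitals mark ACGTG and GCGTG on either strand, and each sequence runs 5′ to 3′ on the gene's strand. Positions are counted from the RefSeq start, which can differ from the gene bounds in GENCODE 29. By those bounds the ERO1A and ANKRD37 windows lie inside the gene, and the others overlap it in part.
ERO1A, chr14:52695559-52695808, minus strand: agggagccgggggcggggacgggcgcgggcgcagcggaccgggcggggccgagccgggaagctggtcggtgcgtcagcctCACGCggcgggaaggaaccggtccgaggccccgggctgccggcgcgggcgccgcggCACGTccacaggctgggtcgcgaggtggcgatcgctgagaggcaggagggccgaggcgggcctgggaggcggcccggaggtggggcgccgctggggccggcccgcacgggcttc
DDIT4, chr10:72273674-72273923, plus strand: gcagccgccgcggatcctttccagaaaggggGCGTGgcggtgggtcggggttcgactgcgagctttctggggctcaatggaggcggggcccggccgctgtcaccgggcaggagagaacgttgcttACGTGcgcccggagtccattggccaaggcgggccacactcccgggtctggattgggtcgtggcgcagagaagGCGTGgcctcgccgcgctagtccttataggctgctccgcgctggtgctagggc
FAM162A, chr3:122383932-122384181, plus strand: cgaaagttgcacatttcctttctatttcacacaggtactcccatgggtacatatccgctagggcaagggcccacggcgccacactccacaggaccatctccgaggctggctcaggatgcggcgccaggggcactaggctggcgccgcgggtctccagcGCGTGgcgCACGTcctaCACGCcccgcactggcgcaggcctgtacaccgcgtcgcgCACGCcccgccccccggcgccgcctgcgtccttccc
ANKRD37, chr4:185396591-185396840, plus strand: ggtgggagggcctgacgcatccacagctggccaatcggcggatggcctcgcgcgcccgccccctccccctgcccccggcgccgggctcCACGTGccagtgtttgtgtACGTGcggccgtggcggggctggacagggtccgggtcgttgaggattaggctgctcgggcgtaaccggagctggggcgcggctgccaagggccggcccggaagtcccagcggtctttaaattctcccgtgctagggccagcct
CA9, chr9:35673678-35673927, plus strand: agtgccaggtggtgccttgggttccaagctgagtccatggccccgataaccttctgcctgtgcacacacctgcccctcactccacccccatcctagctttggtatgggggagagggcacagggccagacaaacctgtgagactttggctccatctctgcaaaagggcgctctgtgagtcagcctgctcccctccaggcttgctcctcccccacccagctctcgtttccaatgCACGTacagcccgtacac
These matches are letters in a window and do not show that HIF was bound there. ERO1A and FAM162A both held ACGTG and GCGTG, with values on opposite sides of the shNC group, and neither was called with all libraries. A relation of the element to the fold changes was not tested.

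CLIC1 was at 219, 210 and 204 TPM in the shCLIC1 libraries and at 313, 311 and 297 TPM in the shNC libraries (log2 fold change −0.54, SE 0.0407, limma adjusted p = 0.00345). TPM is a length-normalized transcript level scaled to the same total in each library. It keeps no sequencing depth, so the depth behind each value is unknown. All fold changes are on the log2(TPM + 1) scale, shCLIC1 over shNC, for the 14135 genes with a mean of at least 1 TPM, and adjusted p-values come from limma with Benjamini-Hochberg adjustment over those genes, with a threshold of 0.05. Between 13927 and 14257 genes reached 1 TPM in the shCLIC1 libraries, and between 14014 and 14097 in the shNC libraries. Mitochondrial genes took 17.1% to 18.0% of the total in the shCLIC1 libraries and 17.2% to 17.6% in the shNC libraries. Epithelial markers summed to between 11207 and 11684 TPM in the shCLIC1 libraries and between 9435 and 9701 TPM in the shNC libraries. KRT8 and KRT18 carried most of that sum, and CDH1 was at 132, 125 and 111 TPM in the shCLIC1 libraries, against 144, 131 and 134 TPM in the shNC libraries. The fibroblast, immune and endothelial marker lists each summed to at most 7.13 TPM in any library, and COL1A2, DCN, LUM, PTPRC, CD3E, CDH5 and KDR were listed at 0 throughout. In bulk RNA, fewer cells of a kind and less RNA per cell cannot be told apart.

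None of the hypoxia genes passed the test when all libraries were used. Of the 30 members 28 were tested, and 0 of 28 were called, where 1.74% of all tested genes were (0.962% higher and 0.778% lower). STC2, a secreted glycoprotein, was listed at 0 in every library. BNIP3, a mitochondrial protein of mitophagy and cell death, was at 0.65, 1.14 and 0.64 TPM in the shCLIC1 libraries and 0.68, 0.57 and 0.47 TPM in the shNC libraries, under the level filter. In GENCODE 29 on GRCh38, the members with the smallest p-values lie on different chromosomes, FAM162A at chr3:122384176-122412334 (plus strand), DDIT4 at chr10:72273920-72276036 (plus strand) and ERO1A at chr14:52639916-52695900 (minus strand). At an unadjusted p under 0.05 there were 10 of 28, 8 on the low side and 2 on the high side, and 15.6% of all tested genes. That count was 5 without shNC replicate 1, 6 without shNC replicate 2 and 11 without shCLIC1 replicate 3. Over all tested genes the counts were 1704, 1739 and 2497 in these fits, against 2207 with all libraries. Leaving out any other library gave 7 to 9 members. The median log2 fold change of the 28 was −0.12, against −0.0047 over all tested genes, and 23 of 28 were negative, against 51.3% of all tested genes.

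The shCLIC1 libraries did not move alike. In shCLIC1 replicate 3, 25 of 28 members lay below the lowest shNC library, where 41.7% of all tested genes did. In shCLIC1 replicate 1 the count was 9 of 28 (23.1% of all tested genes) and in replicate 2 it was 12 of 28 (28.7%). Replicate 3 was the lowest of all 6 libraries for 21 of 28 members and for 32.8% of all tested genes. EPAS1 and EFNA3 lay within the shNC range in that library, and ERO1A lay above it. The median member stood 0.32 below the shNC mean on the log2 scale in replicate 3 (−0.32), against −0.0074 in replicate 1 and −0.012 in replicate 2. The median of all tested genes was at −0.055 in replicate 3, 0.034 in replicate 1 and 0.0088 in replicate 2. Above the highest shNC library were 10, 7 and 1 of 28 members in replicates 1, 2 and 3, against 36.9%, 31.9% and 23.6% of all tested genes. The shNC libraries were closer together, with member medians of 0.072, −0.059 and −0.022, and shNC replicate 1 was the highest of its group for 21 of 28 members (37.7% of all tested genes). Replicate 3 of shCLIC1 also had the fewest genes at 1 TPM or more, 13927, and the largest mitochondrial share, 18.0%. Their part in these values was not tested.

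**Figure D1:**
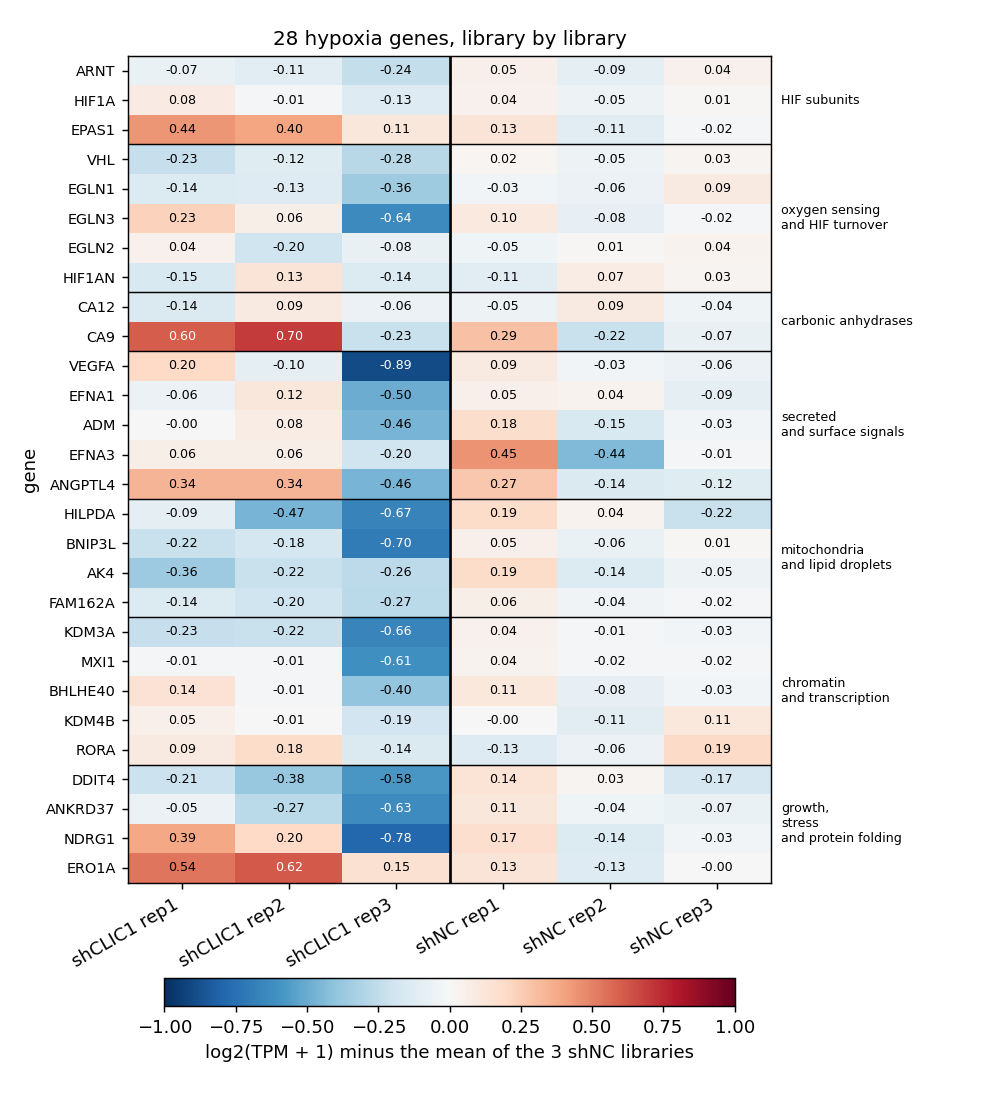
Each cell gives log2(TPM + 1) of 1 gene in 1 library minus the mean of the 3 shNC libraries, with genes in rows by role and libraries in columns, shCLIC1 left of the line and shNC right of it. The shCLIC1 replicate 3 column is below 0 for all genes but EPAS1 and ERO1A, while replicates 1 and 2 hold values on both sides.

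**Figure D2:**
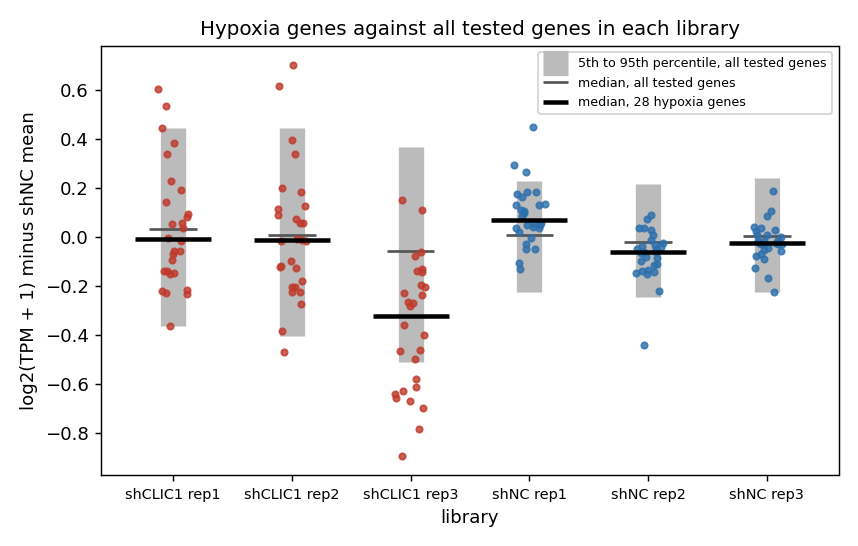
Points are the 28 tested hypoxia genes in each library, on the vertical axis log2(TPM + 1) minus the shNC mean, with shCLIC1 libraries in red and shNC libraries in blue; thick black lines are their medians, thin lines the medians of all 14135 tested genes and grey bars their 5th to 95th percentiles. The median of the hypoxia genes is at −0.32 in shCLIC1 replicate 3 and between −0.059 and 0.072 in the other libraries.

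Among the HIF subunits, HIF1A, the alpha subunit found in most cells, was at 45.0, 41.99 and 38.7 TPM in the shCLIC1 libraries, against 43.7, 41.0 and 42.7 TPM in the shNC libraries. The groups overlapped and the log2 fold change was −0.020, with a 95% interval of −0.18 to 0.14 (adjusted p = 0.922). EPAS1, which encodes HIF-2 alpha, was at 14.7, 14.2 and 11.5 TPM in the shCLIC1 libraries, against 11.6, 9.66 and 10.4 TPM in the shNC libraries. Replicates 1 and 2 of shCLIC1 were above every shNC library and replicate 3 was just inside their range. Its log2 fold change was 0.32 (interval 0.050 to 0.59, adjusted p = 0.236), and 0.42 without shCLIC1 replicate 3 (adjusted p = 0.102). ARNT, the partner of both, averaged 14.3 ± 0.914 TPM in shCLIC1 and 15.8 ± 0.939 TPM in shNC (SD, n = 3 each), with overlapping groups and an adjusted p of 0.456. Set by level per length, HIF1A transcripts stood at 42.2 TPM over all libraries, ARNT at 15.1 and EPAS1 at 12.01 TPM, and the shCLIC1 values of EPAS1 and ARNT overlapped.

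All 5 genes of oxygen sensing and HIF turnover had negative log2 fold changes, from −0.21 to −0.053, and none passed. VHL, the substrate receptor of the ubiquitin ligase for HIF, was at 26.9, 29.04 and 25.9 TPM in the shCLIC1 libraries, against 32.2, 30.6 and 32.3 TPM in the shNC libraries. EGLN1, the main HIF prolyl hydroxylase, was at 27.3, 27.5 and 23.2 TPM in the shCLIC1 libraries, against 29.5, 28.8 and 32.1 TPM in the shNC libraries. For VHL and EGLN1 every shCLIC1 library was below every shNC library, with log2 fold changes of −0.21 (SE 0.0635, adjusted p = 0.169) and −0.21 (SE 0.0829, adjusted p = 0.287). Without shCLIC1 replicate 3 the EGLN1 value was −0.13. EGLN3, a hydroxylase that HIF itself induces, was at 22.1, 19.4 and 11.6 TPM in the shCLIC1 libraries, against 20.1, 17.6 and 18.3 TPM in the shNC libraries. Only shCLIC1 replicate 3 was low for EGLN3, at 62.2% of the shNC mean, and its log2 fold change was −0.12 with that library and 0.15 without it. EGLN2 averaged 36.7 ± 3.14 TPM in shCLIC1 and 38.7 ± 1.15 TPM in shNC (SD, n = 3 each). It shares 2012 exonic bases with the read-through gene RAB4B-EGLN2, at 2.43 TPM. HIF1AN, the asparagine hydroxylase that blunts HIF activity, averaged 12.9 ± 1.55 TPM in shCLIC1 and 13.4 ± 0.926 TPM in shNC (SD, n = 3 each). HIF1AN overlaps the opposite-strand gene NDUFB8, at 259 TPM, over 325 exonic bases, so without strand its level is uncertain.

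The carbonic anhydrases keep internal pH by hydrating carbon dioxide, and CA9 is a classic marker of hypoxic tumour cells. CA9 was at 8.19, 8.83 and 4.17 TPM in the shCLIC1 libraries, against 6.41, 4.19 and 4.74 TPM in the shNC libraries. It was high in shCLIC1 replicates 1 and 2 and lowest of all in replicate 3, and the groups overlapped (log2 fold change 0.36, interval −0.25 to 0.97, adjusted p = 0.564; 0.65 and adjusted p = 0.132 without shCLIC1 replicate 3). CA9 shares 643 exonic bases with ARHGEF39 on the opposite strand, at 22.9 TPM, so its level is uncertain where strand was not used. CA12 was the lowest tested member, at 2.41 ± 0.285 TPM in shCLIC1 and 2.497 ± 0.193 TPM in shNC (SD, n = 3 each; adjusted p = 0.926).

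Secreted and surface signals split by library. VEGFA, the main growth factor for blood vessels, was at 81.4, 66.4 and 37.8 TPM in the shCLIC1 libraries, against 75.4, 69.5 and 68.2 TPM in the shNC libraries. Replicate 1 of shCLIC1 was the highest of all and replicate 3 the lowest, at 53.2% of the shNC mean, the lowest share among the 28 members in that library. The log2 fold change of VEGFA was −0.26 with all libraries (interval −0.84 to 0.32, adjusted p = 0.663) and 0.050 without shCLIC1 replicate 3. An opposite-strand gene at 6.40 TPM shares 188 of its exonic bases. ANGPTL4, a secreted inhibitor of lipoprotein lipase, was at 37.0, 37.0 and 20.8 TPM in the shCLIC1 libraries, against 35.1, 26.2 and 26.6 TPM in the shNC libraries. The vasodilator peptide gene ADM averaged 4.50 ± 1.04 TPM in shCLIC1 and 4.96 ± 0.684 TPM in shNC (SD, n = 3 each). Both had shCLIC1 replicate 3 as the lowest library. The ephrin ligand EFNA1 was likewise lowest in shCLIC1 replicate 3, at 13.2 TPM, against 17.9 to 19.8 TPM in shNC. EFNA3, a second ephrin, ranged from 4.78 to 5.93 TPM in shCLIC1 and from 3.90 to 8.08 TPM in shNC, so its control spread was the wider (adjusted p = 0.975). EFNA3 shares 853 exonic bases with a same-strand gene at 0.16 TPM.

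**Figure D3:**
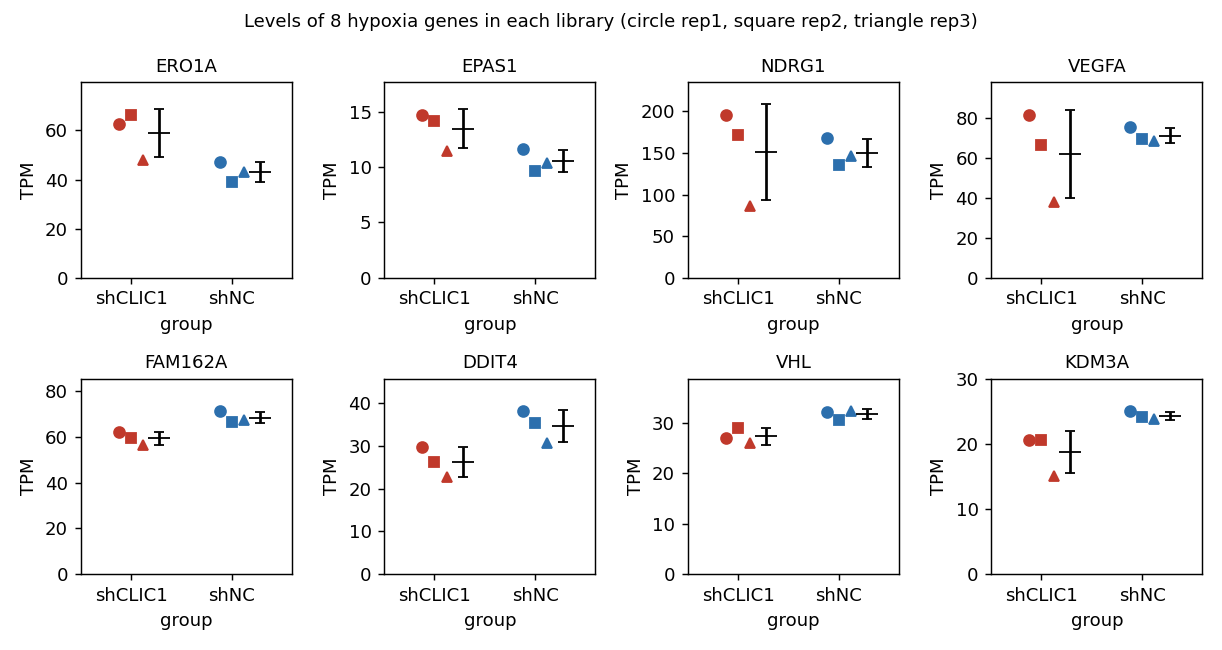
Each panel gives TPM of 1 gene, from 0, with shCLIC1 in red left of shNC in blue; circles, squares and triangles are replicates 1, 2 and 3, and black bars are the mean ± SD of 3 libraries. The shCLIC1 triangle is the lowest shCLIC1 point in all 8 panels. It lies under every shNC point for NDRG1, VEGFA, FAM162A, DDIT4, VHL and KDM3A, within their range for EPAS1 and above them all for ERO1A.

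The 4 tested genes of mitochondria and lipid droplets were all on the low side, with log2 fold changes from −0.41 to −0.20, and none passed. FAM162A, a mitochondrial protein linked to hypoxic cell death, was at 62.1, 59.4 and 56.6 TPM in the shCLIC1 libraries, against 71.2, 66.7 and 67.4 TPM in the shNC libraries. The groups did not overlap, and with the smallest adjusted p of the members, 0.129, its log2 fold change was −0.20 (SE 0.0541) and −0.17 without shCLIC1 replicate 3. BNIP3L, the mitophagy receptor also called NIX, was at 51.4, 52.9 and 36.7 TPM in the shCLIC1 libraries, against 62.4, 57.5 and 60.5 TPM in the shNC libraries. Its groups did not overlap either (log2 fold change −0.37, SE 0.133, adjusted p = 0.242; −0.20 without shCLIC1 replicate 3). AK4, a mitochondrial adenylate kinase, was at 17.5, 19.3 and 18.8 TPM in the shCLIC1 libraries, against 26.0, 20.6 and 21.9 TPM in the shNC libraries. Here shCLIC1 replicate 1 and not replicate 3 was lowest, and the log2 fold change was −0.28 with all libraries and −0.29 without replicate 3 (adjusted p = 0.211 and 0.260). HILPDA, a lipid droplet protein that inhibits triglyceride breakdown, was at 11.98, 9.00 and 7.70 TPM in the shCLIC1 libraries, against 14.8, 13.2 and 10.9 TPM in the shNC libraries. It had the most negative log2 fold change of the members, −0.41 (interval −0.80 to −0.017, adjusted p = 0.299), with overlapping groups.

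All 5 chromatin and transcription genes had their lowest value in shCLIC1 replicate 3. KDM3A, a demethylase of histone H3 lysine 9 induced by HIF, was at 20.6, 20.6 and 15.0 TPM in the shCLIC1 libraries, against 25.0, 24.1 and 23.8 TPM in the shNC libraries. Every shCLIC1 library was below every shNC library (log2 fold change −0.37, SE 0.121, adjusted p = 0.198; −0.23 without shCLIC1 replicate 3). MXI1, a MAX partner that opposes MYC, was at 27.9, 27.9 and 18.1 TPM in the shCLIC1 libraries, against 28.9, 27.7 and 27.8 TPM in the shNC libraries. Only replicate 3 departed, and the fold change of MXI1 was −0.21 with it and −0.014 without it. The helix-loop-helix repressor BHLHE40 and the demethylase KDM4B had log2 fold changes of −0.088 and −0.049, and the nuclear receptor RORA one of 0.045, each with overlapping groups (adjusted p from 0.812 to 0.895).

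ERO1A, the oxidase that reloads protein disulfide isomerase in the endoplasmic reticulum, was at 62.6, 66.3 and 47.8 TPM in the shCLIC1 libraries, against 47.1, 39.1 and 42.9 TPM in the shNC libraries. It was the only member with every shCLIC1 library above every shNC library, 1 of 28 where 11.1% of all tested genes did so (22.3% in either direction), and the lowest shCLIC1 value exceeded the highest shNC value by little. The log2 fold change was 0.44 (SE 0.128, interval 0.13 to 0.74, adjusted p = 0.159). Without shCLIC1 replicate 3 it was 0.58 and passed (SE 0.0851, adjusted p = 0.0443), the only member called under any setting tried, where 1.67% of all tested genes passed. NDRG1, a stress-induced growth regulator and the most abundant member, was at 196, 172 and 86.4 TPM in the shCLIC1 libraries, against 168, 135 and 147 TPM in the shNC libraries. Replicates 1 and 2 of shCLIC1 were the highest of the 6 libraries and replicate 3 the lowest. The group means of NDRG1 were nearly equal, 151 ± 57.6 TPM in shCLIC1 and 150.03 ± 16.4 TPM in shNC (SD, n = 3 each; adjusted p = 0.943).

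DDIT4, an inhibitor of mTORC1 signalling also known as REDD1, was at 29.6, 26.2 and 22.7 TPM in the shCLIC1 libraries, against 38.0, 35.2 and 30.6 TPM in the shNC libraries. The groups did not overlap, and the log2 fold change was −0.39 (SE 0.114, adjusted p = 0.157), or −0.30 without shCLIC1 replicate 3. ANKRD37, an ankyrin repeat protein, averaged 14.7 ± 3.06 TPM in shCLIC1 and 18.4 ± 1.33 TPM in shNC (SD, n = 3 each; log2 fold change −0.32, adjusted p = 0.344; −0.16 without shCLIC1 replicate 3). It shares 909 exonic bases with UFSP2 on the opposite strand, at 19.5 TPM. In all, 7 of 28 members had every shCLIC1 library below every shNC library, where 11.2% of all tested genes did. These were VHL, EGLN1, BNIP3L, FAM162A, AK4, KDM3A and DDIT4. Such separation by itself keeps a fold change negative when any 1 library is left out.

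**Figure D4:**
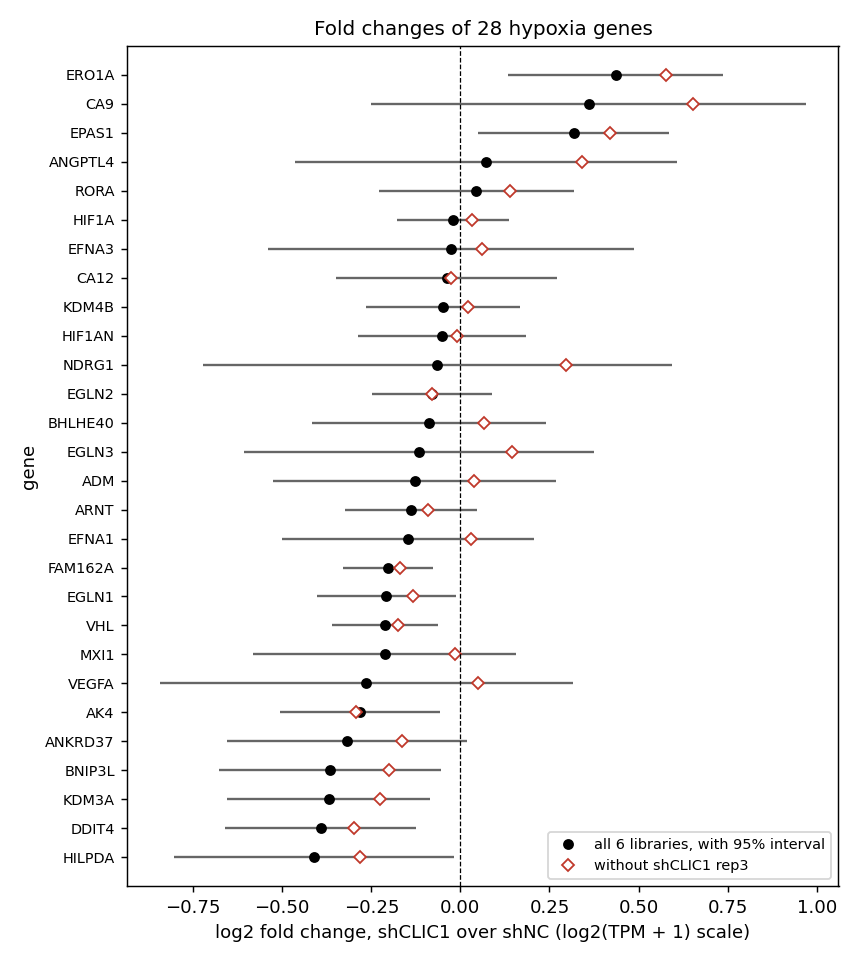
Black points are log2 fold changes of the 28 tested genes, shCLIC1 over shNC, with 95% intervals from limma, and open diamonds are the same without shCLIC1 replicate 3. Diamonds lie right of the points for all genes but AK4 and EGLN2, and 9 genes change sign.

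Without shCLIC1 replicate 3 the median log2 fold change of the 28 members was 0.0059, against 0.021 over all tested genes, and 14 of 28 were negative, against 44.4% of all tested genes. The sign changed for 9 members, namely HIF1A, EGLN3, VEGFA, ADM, NDRG1, KDM4B, EFNA1, EFNA3 and BHLHE40, none of which had passed.

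Of 14 other HIF pathway regulators 13 were tested and 0 passed, where 1.74% of all tested genes did. At an unadjusted p under 0.05 there were 1 lower and 0 higher, against 15.6% of all tested genes in either direction, with a median log2 fold change of −0.046. HSP90AA1, the chaperone that stabilizes HIF-1 alpha, was at 1259, 1260 and 1162 TPM in the shCLIC1 libraries, against 1393, 1280 and 1335 TPM in the shNC libraries, without overlap (adjusted p = 0.239). The other regulators with the smallest p-values were P4HTM, a transmembrane prolyl hydroxylase (log2 fold change 0.19), CITED2, which competes with HIF for a coactivator (−0.18), and RACK1, which promotes HIF-1 alpha degradation (−0.047), with adjusted p from 0.350 to 0.372.

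Of 32 other HIF-responsive genes 25 were tested and 0 passed, against the same 1.74%. There were 3 lower and 4 higher at an unadjusted p under 0.05 (15.6% of all tested genes), with a median log2 fold change of 0.019. TGFA, a ligand of the epidermal growth factor receptor, was at 43.9, 42.0 and 37.2 TPM in the shCLIC1 libraries, against 29.3, 30.6 and 34.5 TPM in the shNC libraries. Every shCLIC1 library was above every shNC library (log2 fold change 0.37, SE 0.0871, adjusted p = 0.0938). CCNG2, an atypical cyclin linked to growth arrest, was at 11.7, 12.2 and 9.94 TPM in the shCLIC1 libraries, against 16.03, 14.99 and 13.96 TPM in the shNC libraries (−0.38, SE 0.0967, adjusted p = 0.111). HIGD1A, a mitochondrial survival protein, and PLOD1, a collagen lysyl hydroxylase, had log2 fold changes of 0.13 and 0.15 (adjusted p = 0.186 and 0.211), each without overlap. In shCLIC1 replicate 3, 15 of these 25 genes lay below the lowest shNC library, against 4 in replicate 1 and 8 in replicate 2, where 41.7%, 23.1% and 28.7% of all tested genes did.

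Among 11 glycolytic HIF targets 2 passed, both lower, ALDOC (log2 fold change −0.85, adjusted p = 0.0210) and PFKFB4 (−0.55, adjusted p = 0.0409), where 0.778% of all tested genes were called lower. PFKFB3 and ENO1 followed without passing (−0.35 and −0.11, adjusted p = 0.0908 and 0.147). ALDOC lost its call without shCLIC1 replicate 2 or any 1 of the shNC libraries (adjusted p up to 0.129), and PFKFB4 without any 1 library (0.0589 to 0.163). Of the 11 genes, 8, 9 and 9 lay below the lowest shNC library in shCLIC1 replicates 1, 2 and 3, where 23.1%, 28.7% and 41.7% of all tested genes did. At an unadjusted p under 0.05 there were 5 lower and 1 higher, against 15.6% of all tested genes in either direction. The higher one, SLC2A1, a glucose transporter named here after its values were seen, was at 1004, 1000.2 and 826 TPM in the shCLIC1 libraries, against 820.01, 804 and 854 TPM in the shNC libraries. Its log2 fold change was 0.19 (adjusted p = 0.291), and 0.28 without shCLIC1 replicate 3, when it passed (adjusted p = 0.0331).

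Earlier results of these data tied the lower genes to GTGCTGA, a run of 7 bases in their 3′ UTRs. In GENCODE 29 transcripts, 4 of the 28 tested members, ARNT, HIF1AN, KDM3A and RORA, held it in a 3′ UTR (14.3%). It was held by 19.2% of 11736 tested genes that could be searched, 54.6% of 97 called lower and 5.43% of 129 called higher. The earlier tie was seen in these same libraries, so the share among genes called lower is not independent of it. The 4 members with GTGCTGA had a median log2 fold change of −0.096, against −0.12 for the 24 members without it. Its part in any value here was not tested.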

How the data were processed

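Bulk RNA-seq of 6 PATU8988 libraries, 3 per group, was analysed from 1 table of TPM that the authors deposited. The submitters' processing notes list GRCh38, HISAT, RSEM, fastp and edgeR, with no order or version. Strand setting and annotation release: not given in the sources used here. Each library's column was found by its name (NC for shNC) and replicate number, and the authors' 2 columns of group means were set aside.

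Values were taken as log2(TPM + 1), a pseudocount of 1, for 14135 genes with a mean of at least 1 TPM. Groups were compared with limma 3.58.1 in R 4.3.3 (mean-variance trend, two-sided, no covariate), with Benjamini-Hochberg adjustment over all 14135 genes and a threshold of 0.05. The test was checked on simulated data with independent noise and changes larger than any member's. That check does not cover changes of the members' size or shifts shared within a library. Coordinates, overlaps and 3′ UTRs came from GENCODE 29, and promoter sequences from RefSeq (GRCh38.p14).

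The members and lists were chosen with earlier results of these data known, so counts over them are descriptions. The text names every member, CLIC1, and from each of 3 further lists the called genes and those with the smallest p, up to 4. Alternatives were another pseudocount, no level filter, no trend, rescaling by a trimmed mean, quantile normalisation, a replicate block and leaving out each library.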

Additional observations from a re-analysis of the deposited data

How the results depend on the processing

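None of the 28 members was called under any alternative except without shCLIC1 replicate 3, where 1 was, ERO1A. Over all tested genes the alternatives called from 0% (no trend) to 2.21% (trimmed-mean rescaling), and 1.67% without shCLIC1 replicate 3. With shares so low, a count of 0 among 28 members does not set them apart from other genes. CLIC1 kept its call in 11 of 12 alternatives and lost it in limma without the trend (log2 fold change −0.54, adjusted p = 0.0730). Over all genes the count of calls, 246, was 260 with a pseudocount of 0.1, 313 after trimmed-mean rescaling and 292 after quantile normalisation. The count was 0 without the trend (2040 at an unadjusted p under 0.05) and 20 to 236 with 1 library left out. With no level filter 61 genes were called, but 29306 genes were then tested and adjusted over. The members' median was between −0.20 and 0.0059 with 1 library left out, highest without shCLIC1 replicate 3, and between −0.14 and −0.11 otherwise. With 1 library left out, fold changes with a sign change ranged from −0.071 to 0.033 for HIF1A, −0.29 to 0.15 for EGLN3, −0.10 to 0.015 for CA12, −0.49 to 0.050 for VEGFA, −0.23 to 0.038 for ADM, −0.29 to 0.295 for NDRG1, −0.10 to 0.023 for KDM4B, −0.063 to 0.34 for ANGPTL4, −0.28 to 0.030 for EFNA1, −0.25 to 0.20 for EFNA3, −0.024 to 0.14 for RORA and −0.20 to 0.066 for BHLHE40. ALDOC and PFKFB4 lost their calls in 6 and 9 of 12 alternatives, and PFKFB3 gained one after trimmed-mean rescaling (adjusted p = 0.0492). Over all tested genes no pairing by replicate number was seen. Same-numbered deviations correlated at 0.0396, −0.046 and −0.0132, and 1 of 3 shCLIC1 libraries correlated best with its own number. Single members differed. A replicate block lowered the SE of DDIT4 from 0.114 to 0.0632 and of HILPDA from 0.168 to 0.0927. It raised the SE of VHL from 0.0635 to 0.0755 and of EGLN1 from 0.0829 to 0.0965. With the replicate block 41 genes and 0 members were called. The depth is unknown, so no counting error can be given for low members such as CA12, CA9 and ADM.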

Other observations

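The pathway annotation in the deposited table offers a broader list, the KEGG map of HIF-1 signalling, chosen after the members' values were seen. It held 322 gene identifiers, of which 86 were tested. Of these, 2 were called higher and 2 lower, where 0.962% and 0.778% of all tested genes were. MKNK2, a kinase of the translation factor eIF4E, was at 73.5, 70.0 and 62.2 TPM in the shCLIC1 libraries, against 51.2, 49.9 and 49.5 TPM in the shNC libraries (log2 fold change 0.44, SE 0.0678, limma adjusted p = 0.0287). TIMP1, a metalloproteinase inhibitor, was at 302, 292 and 287 TPM in the shCLIC1 libraries, against 242, 242 and 248 TPM in the shNC libraries (0.26, SE 0.0348, adjusted p = 0.0187). ALDOC, the aldolase named above, and EIF4EBP1, a repressor of translation that mTORC1 inactivates (87.3 ± 2.97 TPM in shCLIC1 and 104 ± 2.55 TPM in shNC, SD, n = 3 each; −0.25, adjusted p = 0.0460), fell. None of these 4 is among the 30 hypoxia genes. Their groups did not overlap, as for 22.3% of all tested genes, but the calls rest on the same values. MKNK2, TIMP1 and EIF4EBP1 kept a call in 1 of 6 fits with 1 library left out, the one without shCLIC1 replicate 3, and ALDOC in 2 of 6 (adjusted p up to 0.177 over these 4 genes). In shCLIC1 replicate 3, 51 of the 86 lay below the lowest shNC library, against 22 in replicate 1 and 34 in replicate 2, where 41.7%, 23.1% and 28.7% of all tested genes did. The median log2 fold change of the 86 was −0.033 with all libraries and 0.015 without shCLIC1 replicate 3.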
